A study of Mus musculus with 12 samples.

Results

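The proteasome genes were read from Affymetrix mouse genome arrays of primary cerebellar granule neurons (CGNs), the small excitatory neurons of the cerebellum. A gene belonged to the set when its symbol began with Psma, Psmb, Psmc, Psmd, Psme, Psmf or Psmg followed by a digit, and the inducible catalytic subunits Psmb8, Psmb9 and Psmb10 were kept apart for comparison. The set held 46 of the 18193 genes on the arrays that had a probe set (a group of short probes read as 1 value) annotated to a single gene, and each gene was represented by its brightest such probe set. All 14 standard subunits of the 20S core (Psma1 to Psma7 and Psmb1 to Psmb7), all 6 ATPases of the 19S cap and Psmd1 to Psmd14 were measured. Psme2 was not among the 46, because its probe set is annotated both to Psme2 and to its near copy Psme2b. That probe set is reported under both names.

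The 12 arrays fell into 4 groups of 3. They were Ifnb-/- CGNs given recombinant interferon-β (rIFN-β) at 100 U/ml for 24 h, Ifnb+/+ CGNs given the same, untreated Ifnb-/- CGNs and untreated Ifnb+/+ CGNs. All cultures came from B10.RIII pups aged 7 days and were 3 days old. Ifnb-/- mice lack the gene for interferon-β in every cell. For the study as a whole, the methods list Ifnb+/- as well as Ifnb+/+ littermates as wild type, while the array labels say Ifnb+/+. The cultures were made in triplicate, but the sources used here leave unstated whether replicates stem from different litters. The p-values therefore measure the spread between these arrays, which may be technical.

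As background, the 26S proteasome degrades proteins tagged with ubiquitin. Its 20S core is a barrel of outer α rings, which gate the entrance, and inner β rings, which hold the catalytic sites. The 19S cap binds ubiquitin and unfolds the substrate with a ring of ATPases, while other caps, the 11S activators (PA28) and PA200, open the barrel without ATP. Interferons are known to induce Psmb8, Psmb9 and Psmb10, which replace the constitutive catalytic subunits in newly built cores and give the immunoproteasome, together with the PA28 subunits Psme1 and Psme2. Neurons are known for low immunoproteasome levels under resting conditions.

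The interferon-stimulated response element (ISRE), which interferon regulatory factors (IRFs) bind, was searched for in RefSeq promoter windows of build GRCm38.p6, which run from 250 bases before to 50 bases after a gene's start. The core searched was GAAANNGAAA on either strand. It was found in 5 of the 38 members that had a window (13.2%). Counted by window, 5 of the members' 41 windows held it, against 3.44% of all 32851 windows. The 5 sites are shown because they include the promoters of Psmg4 and Psme1. Psmg4 was the single member with an adjusted p under 0.05 for rIFN-β, close to that threshold, and Psme1 did not reach it. Each site is printed in the direction that reads GAAANNGAAA, with the core in capitals and 10 bases on each side.

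Psme1, chr14:55578493-55578522, minus strand, opposite to the gene, core 10 to 19 bases after the start: agcgggaaggGAAAGCGAAAgcacagctcg
Psmg4, chr13:34162969-34162998, plus strand, the gene's own, core 16 to 25 bases after the start: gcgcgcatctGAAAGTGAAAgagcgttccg
Psmb3, chr11:97703261-97703290, minus strand, opposite to the gene, core at -163 to -154: atggaaagcgGAAAGTGAAAagtcactgtg
Psmd4, chr3:95042675-95042704, plus strand, opposite to the gene, core at -80 to -71: aggcgccacaGAAATGGAAAggttggttat
Psmd9, chr5:123228021-123228050, plus strand, the gene's own, core at -159 to -150: gggacagaatGAAAAAGAAAggaatgaaca

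Psmg4 and Psmb3 held the same core letters, GAAAGTGAAA. A match describes letters in these windows and does not show that a factor binds there. The antioxidant response element core TGACNNNGC, which CNC family factors such as Nfe2l1 and Nfe2l2 bind, was present in 6 of the 38 members (15.8%). These were Psmb5, Psmb6, Psmc6, Psmd9, Psmd12 and Psme4. Counted by window, 6 of the members' 41 windows held it, against 12.4% of all windows. Psmd9 held both an ISRE core and an antioxidant response element core, which do not overlap.

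The values are log2 intensities, so a difference of 1 is a doubling of signal. Array medians differed little, between 4.33 and 4.42. Within the groups, arrays correlated at 0.985 to 0.997 in Ifnb-/- CGNs with rIFN-β, 0.983 to 0.989 in Ifnb+/+ CGNs with rIFN-β, 0.997 to 0.998 in untreated Ifnb-/- CGNs and 0.971 to 0.993 in untreated Ifnb+/+ CGNs, across genes. The probe set of Ifnb1 lay at 2.48 to 3.07 on Ifnb-/- arrays and at 2.56 to 2.79 on Ifnb+/+ arrays, too low in both to check the genotype. Granule neuron markers were present, with means from 12.56 (Zic1) down to 5.87 (Gabra6), except that Cbln3 lay within the range of the array medians. Microglial markers were detected as well: the log2 of the summed signal of 10 such genes was 10.47 to 10.71 in Ifnb-/- CGNs with rIFN-β, 10.13 to 10.80 in Ifnb+/+ CGNs with rIFN-β, 10.78 to 10.97 in untreated Ifnb-/- CGNs and 11.36 to 11.47 in untreated Ifnb+/+ CGNs. The microglial sum was thus highest in untreated Ifnb+/+ CGNs. In bulk RNA, fewer cells of a type and less RNA per cell cannot be told apart.

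The spread between replicate arrays set the scale for every comparison of the members. Their median SD was 0.190 in Ifnb-/- CGNs with rIFN-β, 0.162 in Ifnb+/+ CGNs with rIFN-β, 0.0595 in untreated Ifnb-/- CGNs and 0.256 in untreated Ifnb+/+ CGNs. Over all genes the median SD was 0.154, 0.171, 0.0872 and 0.201 in the same 4 groups. Among untreated cells the Ifnb+/+ cultures were therefore the more variable group, and the first Ifnb+/+ array stood apart. On that array 26 of the 46 members had their highest value of all 12 (56.5%, against 33.0% of all genes), and 8 had their lowest (17.4%, against 17.5% of all genes).

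The members did not move as 1 block on that array. All 7 subunits of the 20S β ring were at their highest on it. In the 20S α ring, Psma6 and Psma7 were at their highest, while Psma1, Psma2, Psma3 and Psma4 were at their lowest. Psmc6, a 19S ATPase, was 1.27 below its mean over the 12 arrays on the first Ifnb+/+ array, and the lid deubiquitinase Psmd14 and the PA200 gene Psme4 were also at their lowest there. The β ring median lay 0.52 above its mean on this array, 0.15 below it on the second Ifnb+/+ array and 0.22 above it on the third, whereas the α ring median lay at -0.19, 0.02 and -0.08.

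**Figure D1:**
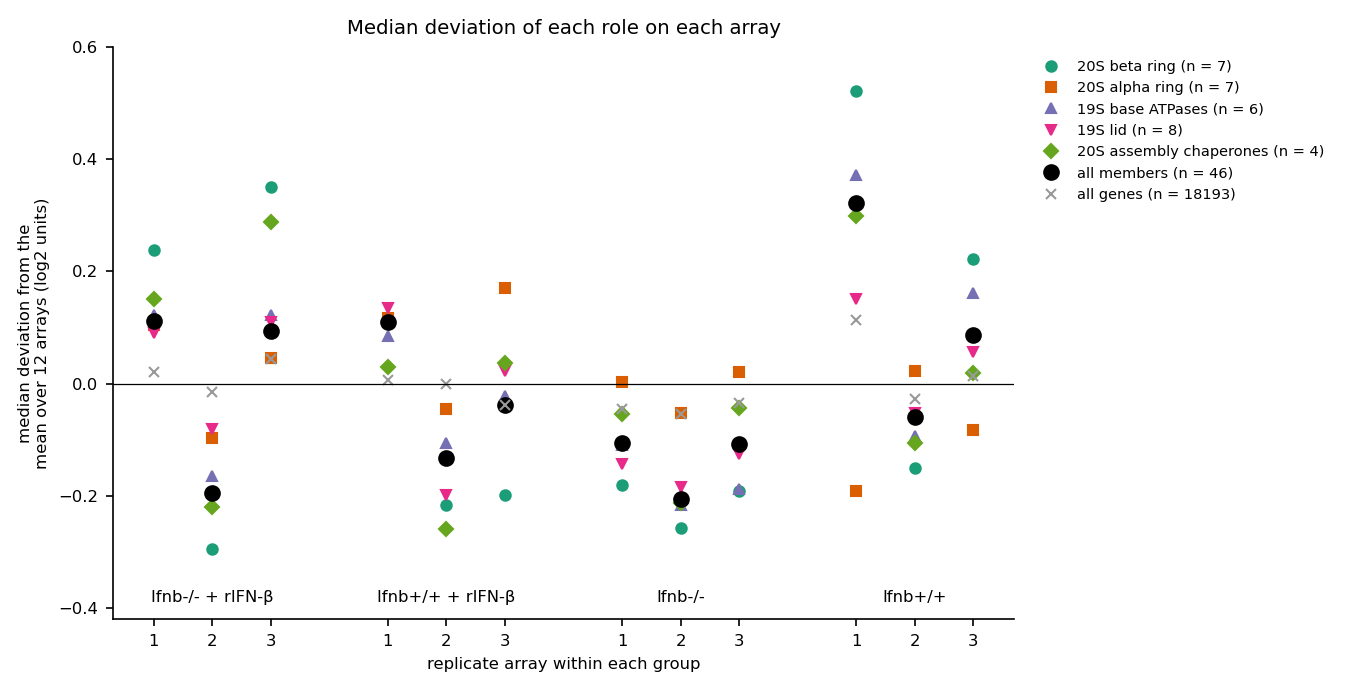
For each array (x axis, replicates 1 to 3 in each of the 4 groups), points give the median deviation of a role's genes from their mean over all 12 arrays, in log2 units (y axis). Black points are all 46 members and grey crosses all 18193 genes; the 20S β ring lay between -0.29 and 0.52, while all genes stayed between -0.06 and 0.11.

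With rIFN-β, the β ring medians were 0.24, -0.29 and 0.35 on the Ifnb-/- arrays and 0.11, -0.22 and -0.20 on the Ifnb+/+ arrays. The α ring medians were 0.10, -0.10 and 0.05 on the same Ifnb-/- arrays and 0.12, -0.05 and 0.17 on the same Ifnb+/+ arrays. Lowest values lay mostly on second arrays. On the second Ifnb-/- array with rIFN-β 9 members had theirs (19.6%, against 10.1% of all genes). The second Ifnb+/+ array with rIFN-β held 12 (26.1%, against 8.86% of all genes). The second untreated Ifnb-/- array held 10 (21.7%, against 9.82% of all genes), and the second untreated Ifnb+/+ array 0 (6.87% of all genes).

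Whether rIFN-β changed the constitutive proteasome was asked first in Ifnb-/- CGNs, where no endogenous interferon-β is made. A single member passed the test: Psmg4, an assembly chaperone known as PAC4 that works with Psmg3 (PAC3) in building the α ring. A gene was called when its adjusted p in limma's moderated test, Benjamini-Hochberg corrected over all genes, was under 0.05. By this rule 1 of the 46 members was called higher and 0 lower, while 1.67% of all genes were called. At an unadjusted p under 0.05, 7 members were higher (9.16% of all genes) and 1 was lower (5.44% of all genes). The log2 summed signal of 8 astrocyte markers was 12.01 to 13.60 in Ifnb-/- CGNs with rIFN-β and 12.05 to 12.19 in untreated Ifnb-/- CGNs. The second Ifnb-/- array with rIFN-β stood apart, with an astrocyte median of 1.12 above the mean, against -0.31 and -0.29 on the other treated Ifnb-/- arrays, and a member median of -0.20. Without it the members' median log2 fold change was 0.28, against 0.17 with it. Gjb6, an astrocyte gap junction gene (-1.11, SE 0.23; adjusted p = 0.0306), and Mobp, an oligodendrocyte myelin gene (-1.16, SE 0.15; adjusted p = 0.00227), were called lower. Of the 8 astrocyte markers, however, 5 had positive and 3 negative log2 fold changes, with a median of 0.37. Of the 6 oligodendrocyte markers, 2 were positive and 4 negative, with a median of -0.24. The part of these lists in the members' values was not tested.

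Psmg4 read 7.59, 7.34 and 7.70 on the Ifnb-/- arrays with rIFN-β, against 6.92, 6.96 and 7.09 on the untreated Ifnb-/- arrays. The groups did not overlap. The share of all genes whose groups do not overlap was not counted, so non-overlap is only a description, here and for the genes below. The mean of Psmg4 was 7.54 ± 0.19 with rIFN-β and 6.99 ± 0.09 untreated (SD, n = 3 each). This was a log2 fold change of 0.55 (SE 0.12, 1.46-fold; limma adjusted p = 0.0480). The call lay at the edge of the threshold: of 22 alternative analyses at the same threshold 7 kept it and 15 did not, with adjusted p from 0.000423 to 0.216 and a log2 fold change between 0.32 and 0.65, always higher with rIFN-β. The lowest fold came from averaging it with a second probe set of Psmg4 that reads only 2.06 on average.

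Psmg4 in Ifnb+/+ CGNs gave 7.42, 7.42 and 7.45 with rIFN-β, against 7.47, 7.18 and 7.19 untreated, which overlap. The log2 fold change was 0.15 (SE 0.12; limma adjusted p = 0.532), and the difference between the genotypes' responses was 0.40 (SE 0.17; adjusted p = 0.323), so a difference in response was not shown. The other 20S assembly chaperones did not pass in either genotype. Psmg3, its partner, had log2 fold changes of 0.15 (SE 0.14) in Ifnb-/- and -0.23 (SE 0.14) in Ifnb+/+ CGNs. Psmg1 (PAC1) had 0.18 and -0.35 (SE 0.22 each), and its partner Psmg2 (PAC2) had -0.21 and -0.21 (SE 0.20 each). Between the untreated genotypes Psmg1, Psmg2 and Psmg3 had -0.34, 0.01 and -0.20, and with rIFN-β in both genotypes 0.19, 0.02 and 0.18.

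Of the activators among the members, Psme1 had the largest log2 fold changes with rIFN-β in both genotypes. Psme1 encodes PA28α, which forms a ring with PA28β, the product of Psme2, that caps the 20S core. It read 8.16, 7.98 and 8.27 in Ifnb-/- CGNs with rIFN-β, 8.42, 8.72 and 9.14 in Ifnb+/+ CGNs with rIFN-β, 7.68, 7.63 and 7.73 in untreated Ifnb-/- CGNs and 8.52, 7.94 and 8.15 in untreated Ifnb+/+ CGNs. The treated and untreated Ifnb-/- arrays did not overlap, whereas in Ifnb+/+ CGNs the first treated array lay below the first untreated one.

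Psme1 did not pass the test over all genes. Its log2 fold change with rIFN-β was 0.45 in Ifnb-/- CGNs (SE 0.19, 1.37-fold; limma adjusted p = 0.285) and 0.56 in Ifnb+/+ CGNs (SE 0.19, 1.47-fold; adjusted p = 0.130). It was called in 2 of 22 alternatives in each genotype, with adjusted p from 0.00680 to 0.602 in Ifnb-/- and from 0.00696 to 0.627 in Ifnb+/+ CGNs. Left without its first treated array, the Ifnb+/+ comparison gave 0.73 (adjusted p = 0.0401). Between genotypes, Psme1 was 0.52 lower in untreated Ifnb-/- than in untreated Ifnb+/+ CGNs (-0.52, SE 0.19; adjusted p = 0.194) and 0.63 lower with rIFN-β in both (-0.63, SE 0.19; adjusted p = 0.483), with no overlap of arrays in either case. The responses of the genotypes differed by -0.10 (SE 0.26; adjusted p = 0.842).

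The probe set annotated to both Psme2 and Psme2b was looked at after its annotation was seen, in a fit over all 35877 annotated probe sets. It read 8.92, 8.78 and 8.91 in Ifnb-/- CGNs with rIFN-β, 9.21, 9.82 and 10.19 in Ifnb+/+ CGNs with rIFN-β, 8.31, 8.17 and 8.38 in untreated Ifnb-/- CGNs and 8.68, 8.50 and 8.52 in untreated Ifnb+/+ CGNs. Treated arrays lay above untreated ones in both genotypes. The rise passed in Ifnb+/+ CGNs (log2 fold change 1.18, SE 0.20; limma adjusted p = 0.00886), and the value in Ifnb-/- CGNs was 0.59 (SE 0.20; adjusted p = 0.183). Which of the 2 genes gave the signal cannot be told from the probe set.

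The remaining activators and the regulator had values on both sides of 0. Psme3 (PA28γ, a nuclear activator) had log2 fold changes with rIFN-β of 0.16 in Ifnb-/- and -0.37 in Ifnb+/+ CGNs (SE 0.22 each). Psme4 (PA200) had -0.10 and 0.16 (SE 0.17 each). Psmf1 (PI31), a protein that binds the 20S core and was first described as an inhibitor, had 0.19 and -0.32 (SE 0.16 each). None of the 3 passed in any comparison. Between the untreated genotypes they had -0.47 (Psme3), 0.18 (Psme4) and -0.49 (Psmf1), with rIFN-β in both genotypes 0.06, -0.08 and 0.02, and for the difference in response 0.53, -0.25 and 0.51, in the same order.

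**Figure D2:**
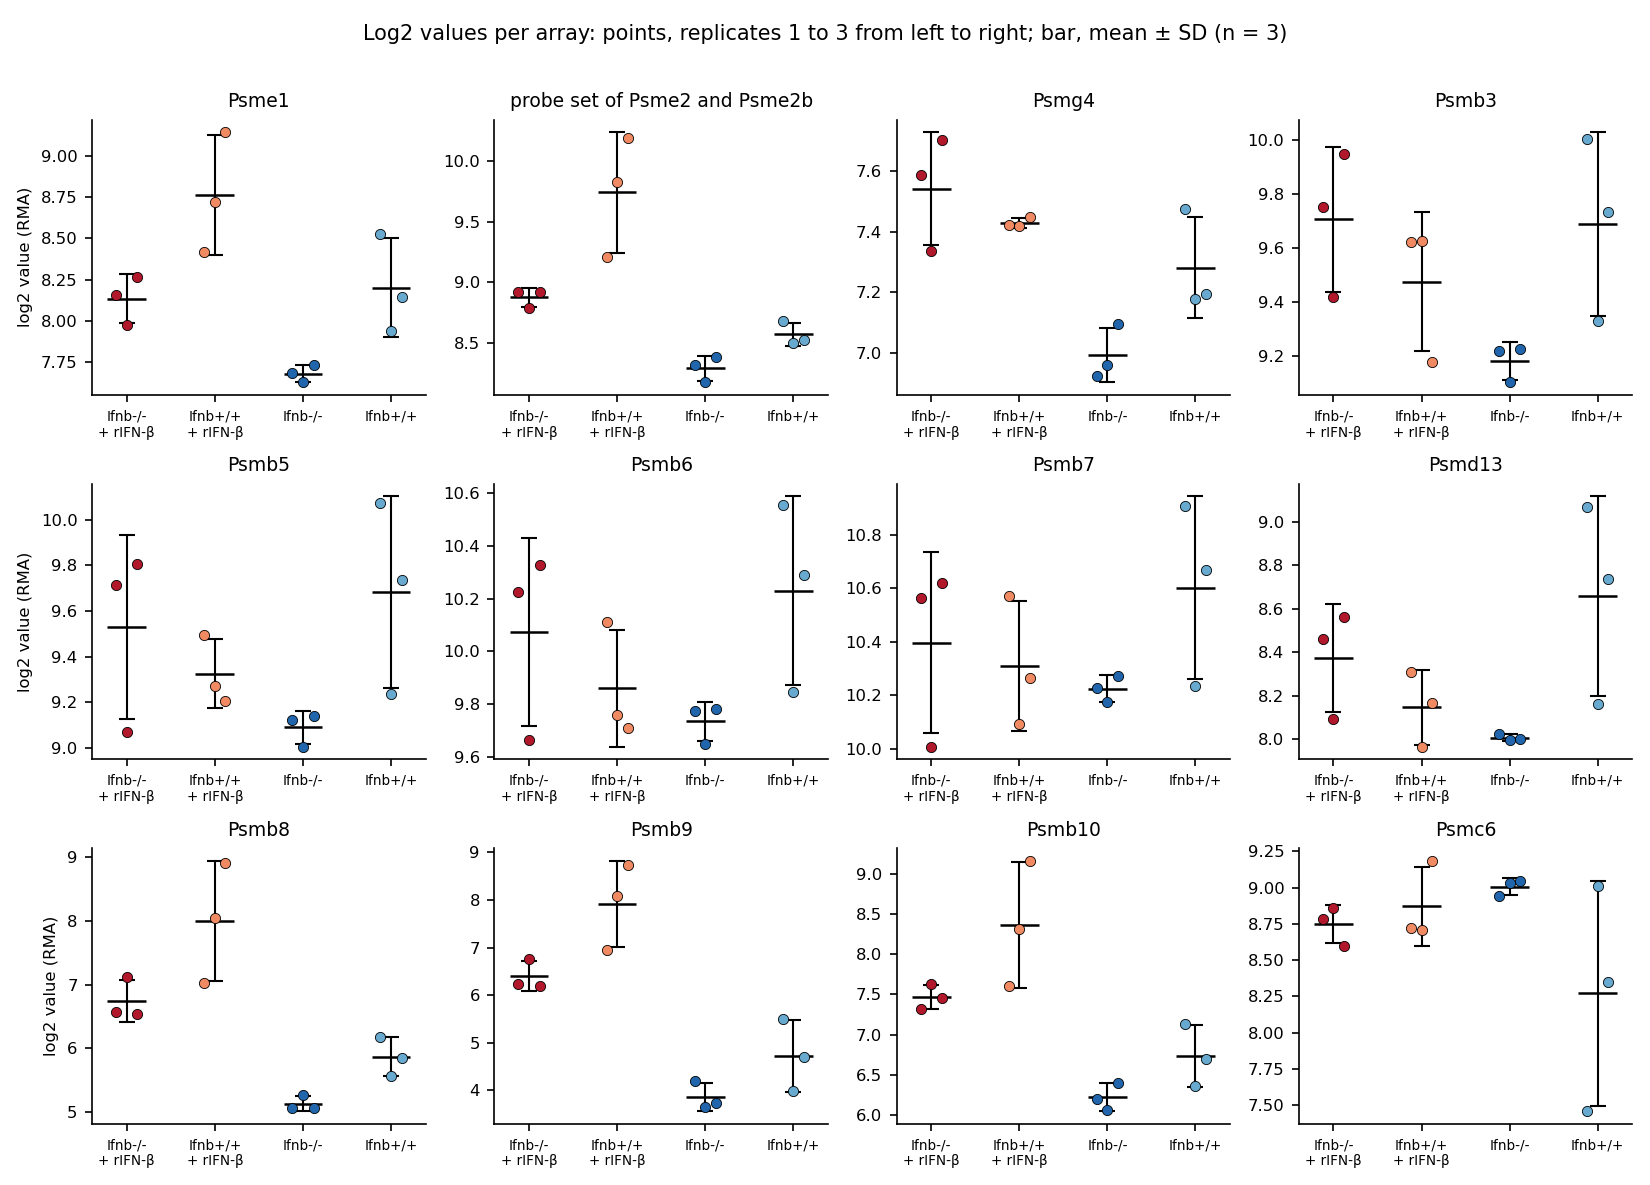
Log2 value (y axis of each panel) of 8 members, the 3 immunoproteasome genes and the probe set of Psme2 and Psme2b on each array, with the 4 groups on the x axis; points are replicates 1 to 3 from left to right, bars the mean ± SD (n = 3). Psmb8, Psmb9 and Psmb10 lie higher on every array with rIFN-β than on the untreated arrays of the same genotype, while Psmb5, Psmb6, Psmb7 and Psmd13 are highest on the first untreated Ifnb+/+ array.

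The catalytic subunits separated by class. Each constitutive subunit is replaced by 1 inducible partner: Psmb5 (chymotrypsin-like) by Psmb8, Psmb6 (caspase-like) by Psmb9 and Psmb7 (trypsin-like) by Psmb10. Psmb8 read 6.57, 7.12 and 6.54 in Ifnb-/- CGNs with rIFN-β, against 5.07, 5.26 and 5.06 in untreated Ifnb-/- CGNs. Psmb5 read 9.71, 9.07 and 9.81 in the same treated cells, against 9.12, 9.01 and 9.14 in the untreated ones, so that the second treated array lay within the untreated range. The log2 fold change of Psmb8 was 1.61 (SE 0.36; limma adjusted p = 0.0480) and that of Psmb5 0.44 (SE 0.22; adjusted p = 0.377). The call of Psmb8 was at the edge too: 10 of 22 alternatives kept it and 12 did not, with adjusted p from 0.000354 to 0.192.

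In Ifnb+/+ CGNs Psmb8 read 7.03, 8.05 and 8.92 with rIFN-β, against 6.18, 5.57 and 5.85 untreated, and rose by 2.13 on the log2 scale (SE 0.36; adjusted p = 0.00648). Psmb5 read 9.50, 9.27 and 9.21 with rIFN-β, against 10.07, 9.24 and 9.74 untreated (-0.36, SE 0.22; adjusted p = 0.381). Of the other inducible subunits, Psmb9 rose by 2.53 in Ifnb-/- (SE 0.43; adjusted p = 0.0123) and by 3.19 in Ifnb+/+ CGNs (SE 0.43; adjusted p = 0.00127), where its partner Psmb6 had 0.34 and -0.37 (SE 0.20 each; adjusted p = 0.462 and 0.329). Psmb10 had 1.25 in Ifnb-/- CGNs (SE 0.31, adjusted p = 0.0738) and rose by 1.63 in Ifnb+/+ CGNs (SE 0.31, adjusted p = 0.0138). Its partner Psmb7 had 0.17 and -0.29 (SE 0.20 each, adjusted p = 0.703 and 0.434). Of 22 alternatives in Ifnb+/+ CGNs, 20 kept the call of Psmb8, 21 that of Psmb9 and 18 that of Psmb10. The methods' t-test with Benjamini-Hochberg adjustment called none of them there (adjusted p = 0.532, 0.452 and 0.589).

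All 7 constitutive β subunits had positive log2 fold changes with rIFN-β in Ifnb-/- CGNs, from 0.17 to 0.52 with a median of 0.34, and all 7 had negative ones in Ifnb+/+ CGNs, from -0.37 to -0.07 with a median of -0.29. None passed in either. The largest in Ifnb-/- CGNs was Psmb3, a structural subunit, which read 9.75, 9.42 and 9.95 with rIFN-β, against 9.22, 9.10 and 9.23 untreated. Its groups did not overlap (log2 fold change 0.52, SE 0.19; limma adjusted p = 0.228). Ifnb+/+ CGNs gave 9.62, 9.63 and 9.18 for Psmb3 with rIFN-β, against 10.01, 9.33 and 9.74 untreated (-0.21, SE 0.19; adjusted p = 0.568).

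The members with an ISRE core in their promoter window were thus not uniform. In Ifnb-/- CGNs their log2 fold changes with rIFN-β were 0.55 for Psmg4, 0.52 for Psmb3, 0.45 for Psme1, 0.34 for Psmd9 and 0.34 for Psmd4, against a median of 0.17 over all members and 0.07 over all genes. In Ifnb+/+ CGNs they were 0.56 for Psme1, 0.15 for Psmg4, -0.20 for Psmd4, -0.21 for Psmb3 and -0.33 for Psmd9, against -0.20 over all members and -0.03 over all genes. Only Psme1 and Psmg4 of the 5 were positive in both genotypes. No ISRE core was found for Psmb8, Psmb9 or Psmb10, but whether Psmb9 and Psmb10 had a window was not checked.

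Over all members, rIFN-β in Ifnb-/- CGNs gave 37 positive and 9 negative log2 fold changes (80.4% positive, against 63.6% of all genes). After Psmg4 and Psmb3, the third most positive was Psmc5, a 19S ATPase also known as Rpt6 (0.46, SE 0.20; adjusted p = 0.310). The most negative were Psmd10 (gankyrin, a 19S assembly chaperone; -0.26, SE 0.12), Psmc6 (-0.26, SE 0.29) and Psmg2 (-0.21, SE 0.20). None of these passed.

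In Ifnb+/+ CGNs, rIFN-β gave 0 called members, while 3.14% of all genes were called. At an unadjusted p under 0.05, 4 members were higher (8.81% of all genes) and 4 lower (11.1% of all genes). Positive values numbered 17 and negative ones 29 (63.0% negative, against 56.0% of all genes), with a median of -0.20 against -0.03 over all genes. The most positive were the ATPase Psmc6 (0.60, SE 0.29), Psme1 and the α subunit Psma3 (0.43, SE 0.16; adjusted p = 0.173). The most negative were the lid subunits Psmd8 (-0.55, SE 0.21; adjusted p = 0.181) and Psmd13 (-0.51, SE 0.20; adjusted p = 0.192) and the base subunit Psmd2, which helps to receive ubiquitin carriers (-0.41, SE 0.18; adjusted p = 0.244).

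These values depended on the untreated Ifnb+/+ arrays. Without the first of them the members' median in Ifnb+/+ CGNs was -0.05, and 0 members were called. Without the second, 6 members were called, 2 higher and 4 lower, among 16.0% of all genes. Without the first Ifnb+/+ array with rIFN-β, 1 member was called, Psme1, among 5.94% of all genes. Microglial markers moved in this comparison as well: 9 of 10 had negative values and 6 were called lower, among them C1qb (-1.12, SE 0.17; adjusted p = 0.00330). The log2 summed signal of the 8 astrocyte markers was 11.83 to 13.18 in Ifnb+/+ CGNs with rIFN-β and 11.89 to 12.06 in untreated Ifnb+/+ CGNs. Of these markers 5 had positive and 3 negative values, with a median of 0.11, and 0 were called. The part of the microglial and astrocyte lists in the members' values was not tested.

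The 19S cap, which feeds substrates into the core, was read by part. Its 6 ATPases had a median log2 fold change with rIFN-β of 0.15 in Ifnb-/- and -0.22 in Ifnb+/+ CGNs, and the 8 lid subunits had 0.17 and 0.05. Psmc2, an ATPase, read 9.74, 9.59 and 9.72 in Ifnb-/- CGNs with rIFN-β, against 9.40, 9.30 and 9.38 in untreated Ifnb-/- CGNs. The groups did not overlap, and Psmc2 had the second smallest p of the members in this comparison (0.32, SE 0.10; limma adjusted p = 0.159). It was not called, and how many of all genes separate in this way was not counted. Psmd8 in Ifnb+/+ CGNs read 9.54, 8.94 and 9.23 with rIFN-β, against 10.13, 9.44 and 9.79 untreated. Here the first treated array lay above the second untreated one.

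**Figure D3:**
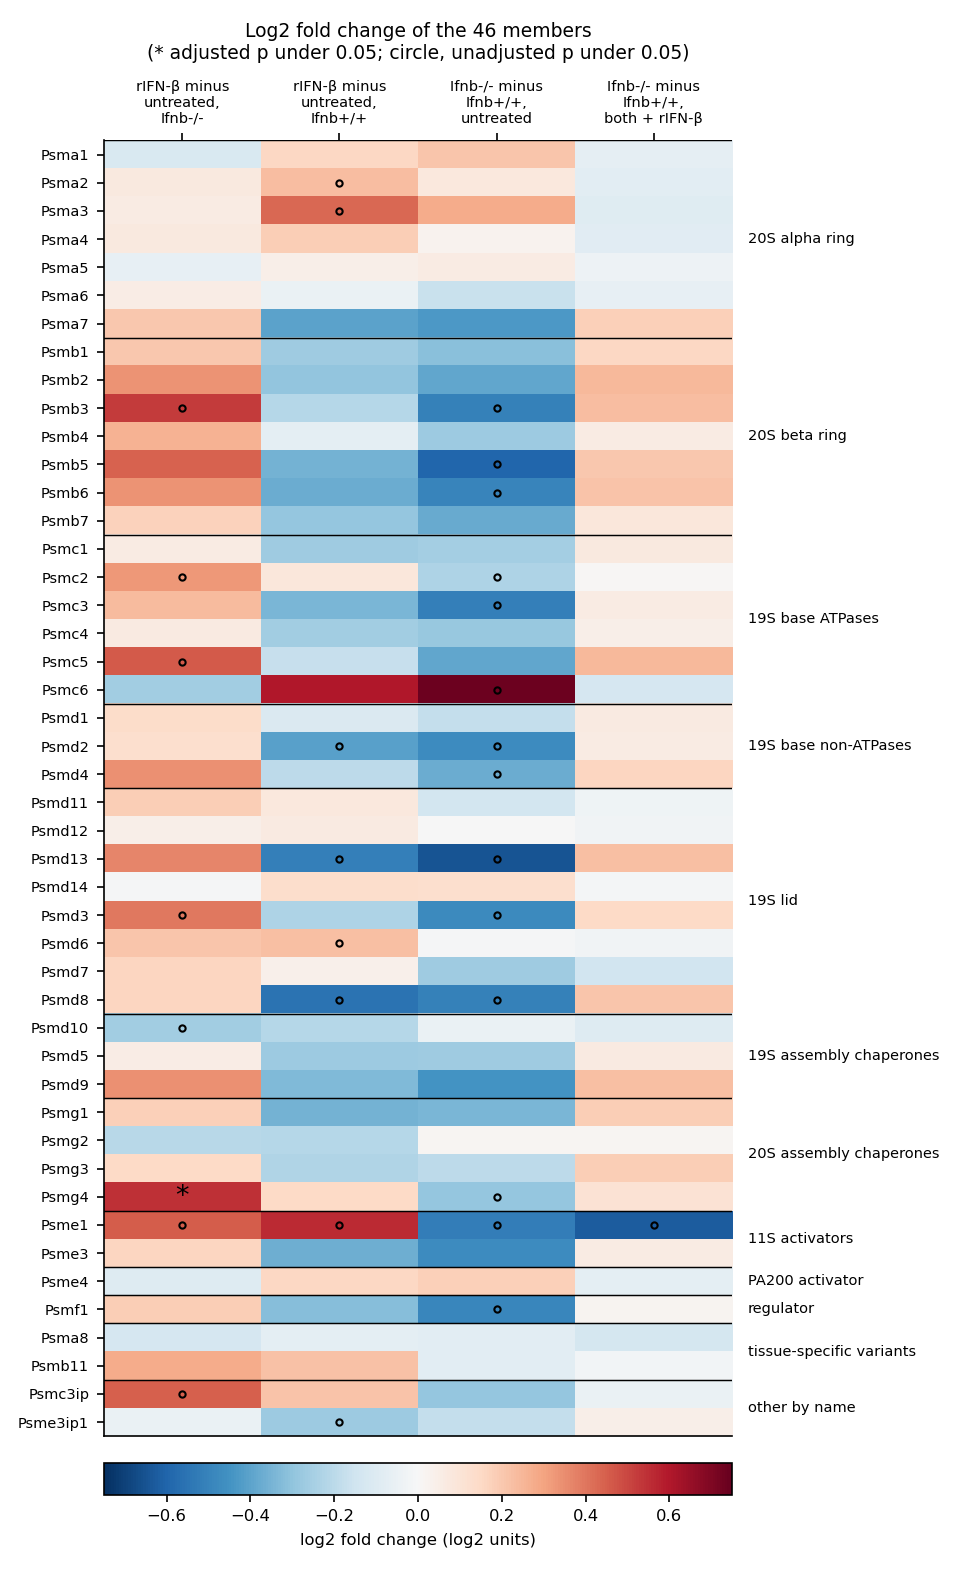
Each row is 1 of the 46 members, grouped by role, and each column 1 comparison; colour gives the log2 fold change (blue negative, red positive). The asterisk marks Psmg4, the single member with an adjusted p under 0.05, and circles mark an unadjusted p under 0.05; in untreated CGNs 37 members are negative in Ifnb-/- relative to Ifnb+/+.

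Untreated Ifnb-/- CGNs were compared with untreated Ifnb+/+ CGNs to ask whether the lack of endogenous interferon-β changed the proteasome. No member was called, and 0.115% of all genes were. At an unadjusted p under 0.05, 13 members were lower (12.8% of all genes) and 1 was higher (8.4% of all genes). Negative values numbered 37 of 46 (80.4%, against 65.5% of all genes), and the median was -0.27 against -0.09 over all genes. None of the 13 lower members belonged to the α ring. They were Psmb3, Psmb5 and Psmb6 in the β ring, the ATPases Psmc2 and Psmc3, the base subunits Psmd2 and Psmd4 (a ubiquitin receptor), the lid subunits Psmd3, Psmd8 and Psmd13, and Psmg4, Psme1 and Psmf1.

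Psmd13, a structural subunit of the lid, had the most negative value. All 3 untreated Ifnb-/- arrays read between 7.99 and 8.03, against 9.07, 8.16 and 8.74 in untreated Ifnb+/+ CGNs. The groups did not overlap, though the second Ifnb+/+ array lay close to the Ifnb-/- arrays. The log2 fold change was -0.65 (SE 0.20; limma adjusted p = 0.184). Psmb5 followed with -0.59 (SE 0.22; adjusted p = 0.198): its values were 9.12, 9.01 and 9.14 in Ifnb-/- CGNs, against 10.07, 9.24 and 9.74 in Ifnb+/+ CGNs.

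The positive values came mainly from the α ring and 1 ATPase. Psmc6 read 8.94, 9.03 and 9.05 in untreated Ifnb-/- CGNs, against 7.46, 9.01 and 8.35 in untreated Ifnb+/+ CGNs, where the second array lay within the Ifnb-/- range (0.74, SE 0.29; adjusted p = 0.208). Psma3 had 0.28 (SE 0.16) and Psma1 0.21 (SE 0.14). Without the first Ifnb+/+ array these values were 0.33 for Psmc6, 0.09 for Psma3 and 0.10 for Psma1. In the α ring 5 of 7 values were positive, while all 7 were negative in the β ring.

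Which Ifnb+/+ arrays were used decided the calls. Without the second Ifnb+/+ array, 14 members were called, 12 lower and 2 higher (Psmc6 and Psma3), among 21.1% of all genes. Psmd13 then had -0.90 (adjusted p = 0.0158), Psmb5 -0.82 (adjusted p = 0.0225) and Psmc6 1.10 (adjusted p = 0.0168). Without the first, Psmd13 had -0.44 and Psmb5 -0.40, 0 members were called, the median was -0.16 against -0.05 over all genes, and 39 of 46 values were negative. Without the third, 0 were called and the median was -0.27. All 10 microglial markers had negative values in untreated Ifnb-/- relative to untreated Ifnb+/+ CGNs, 1 of them called lower (Trem2, -1.03, SE 0.14; adjusted p = 0.0164), and all 9 granule neuron markers had positive values, none of them called. Of the 8 astrocyte markers 6 had positive and 2 negative values, and 0 were called. The negative ones were Gfap and Aldh1l1. They read 10.25 and 9.54 on the first untreated Ifnb+/+ array, against 7.29 and 7.73 on the second. The part of these 3 marker lists in the members' values was not tested.

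**Figure D4:**
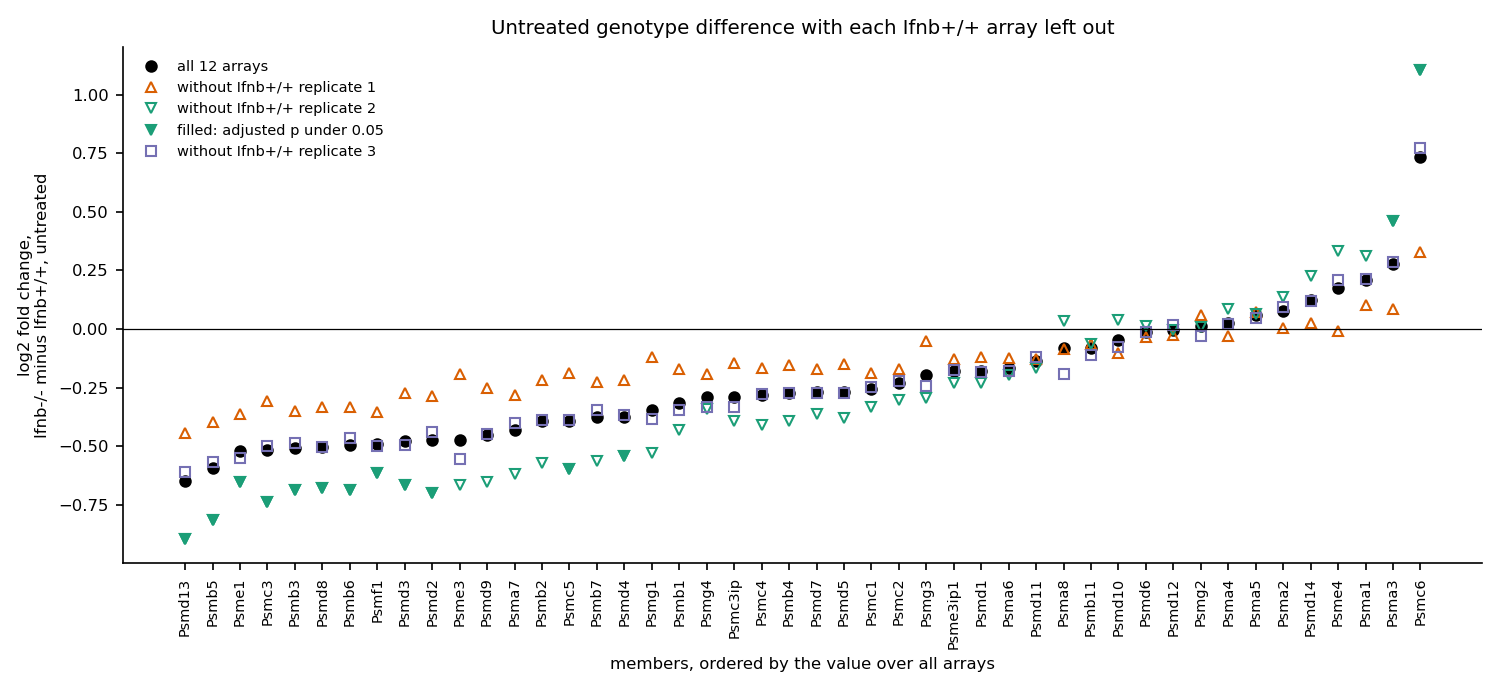
Log2 fold change of each member (x axis, ordered by the value over all arrays) between untreated Ifnb-/- and untreated Ifnb+/+ CGNs (y axis), over all 12 arrays and with each Ifnb+/+ array left out; filled symbols mark an adjusted p under 0.05. Without the first Ifnb+/+ array values lie closer to 0, between -0.44 and 0.33, and without the second they spread to between -0.90 and 1.10.

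With rIFN-β in both genotypes, no member was called and 0.0605% of all genes were. At an unadjusted p under 0.05, 0 members were higher (1.88% of all genes) and 1, Psme1, was lower (3.06% of all genes). The median was 0.05 against 0.03 over all genes, and the values ran from -0.63 to 0.24. The most positive values were those of Psmc5 (0.24, SE 0.20), Psmb2 (0.24, SE 0.20) and Psmb3 (0.23, SE 0.19). After Psme1, the most negative were Psmd7, a lid subunit (-0.15, SE 0.17), and Psma8 (-0.13, SE 0.13). Psmb8, Psmb9 and Psmb10 had -1.26 (SE 0.36), -1.53 (SE 0.43) and -0.90 (SE 0.31), with adjusted p of 0.452, 0.433 and 0.704.

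The difference between the genotypes' responses to rIFN-β, tested as an interaction, gave 0 called members, and 0.022% of all genes were called. At an unadjusted p under 0.05, 12 members were higher (10.1% of all genes) and 0 lower (5.21% of all genes). The median was 0.33 against 0.11 over all genes, and all 7 β subunits were positive with a median of 0.64. Psmd13 (0.88, SE 0.29), Psmb5 (0.80, SE 0.31) and Psmb3 (0.74, SE 0.27) were the most positive, each with an adjusted p of 0.323. Psmc6 (-0.86, SE 0.41), Psma3 (-0.37, SE 0.23) and Psma1 (-0.27, SE 0.19) were the most negative. Without the second untreated Ifnb+/+ array, 7 members were called, 6 higher and 1 lower, among 6.80% of all genes; without the first, 0 were called and the median was 0.21.

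Psma8, the α subunit of the testis, lay at 2.15 to 2.71 over the 12 arrays, and Psmb11, the β subunit of thymic cortical epithelium, at 1.96 to 2.64, near the lower end of a scale that begins at 1.26. Psmc3ip, which takes part in meiotic recombination and is named for its binding to the Psmc3 protein, read 5.02, 5.36 and 5.08 in Ifnb-/- CGNs with rIFN-β, against 4.79, 4.64 and 4.68 in untreated Ifnb-/- CGNs. The groups did not overlap (0.45, SE 0.15; limma adjusted p = 0.180). Psme3ip1, which binds PA28γ, had -0.05 in Ifnb-/- and -0.27 in Ifnb+/+ CGNs with rIFN-β (SE 0.11 each).

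For 26 members the arrays carried more than 1 single-gene probe set, 79 in all, and the 46 members together had 99. Tested on their own in a fit over all 34945 such probe sets, 0 of the 99 were called in any of the 5 comparisons. Of the 26 further probe sets with a mean of at least 5, the sign matched that of the brightest one for 24 in the untreated genotype comparison, 22 for rIFN-β in Ifnb+/+ CGNs, 17 for rIFN-β in Ifnb-/- CGNs, 21 for the genotypes with rIFN-β and 24 for the interaction. A second probe set of Psmb3 gave 0.46 with rIFN-β in Ifnb-/- CGNs, beside 0.52 for the brightest. Psmd13 had 4 single-gene probe sets. A second of them gave -0.61 between the untreated genotypes, beside -0.65 for the brightest. The others are not given here, so agreement among all of them is not shown. The value of Psmd13 varied with the analysis, and the alternatives include other choices of probe set. Between the genotypes with rIFN-β it ran from -0.13 to 0.37 over 22 alternatives. Over 22 alternatives it ran from -0.90 to -0.39 between the untreated genotypes, and from -0.76 to -0.06 for rIFN-β in Ifnb+/+ CGNs. For the interaction it ran from 0.27 to 1.12 over 20 alternatives.

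Other genes of the ubiquitin-proteasome system were read from a list of receptors, shuttles, assembly factors and regulators, of which 17 had a single-gene probe set. None of the 17 was called in any of the 5 comparisons. In untreated cells 10 had positive and 7 negative values, with a median of 0.08. Zfand5, a protein that activates the 26S proteasome, read 11.74, 11.83 and 11.76 in untreated Ifnb-/- CGNs, against 10.96, 11.42 and 11.24 in untreated Ifnb+/+ CGNs. The groups did not overlap (0.57, SE 0.12; limma adjusted p = 0.116).

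Zfand5 with rIFN-β read 11.54, 11.34 and 11.35 in Ifnb-/- CGNs, below all untreated Ifnb-/- arrays (-0.37, SE 0.12; adjusted p = 0.192). Nploc4, a cofactor of the segregase Vcp, had -0.45 (SE 0.17) and the shuttle factor Ubqln2 0.36 (SE 0.14) between the untreated genotypes. In Ifnb+/+ CGNs the smallest p for rIFN-β were those of the lid subunit Sem1 (0.69, SE 0.23; adjusted p = 0.138) and of Pomp, the chaperone that completes the 20S core (0.33, SE 0.12; adjusted p = 0.170). Nfe2l1, the transcription factor known for raising proteasome genes when proteolysis falls short, read 7.23, 7.34 and 7.38 in Ifnb-/- CGNs with rIFN-β, against 7.08, 7.05 and 7.19 in untreated Ifnb-/- CGNs. The groups did not overlap, but the gene did not pass (0.21, SE 0.10; adjusted p = 0.368).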

How the data were processed

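RNA of 12 CGN cultures was hybridised to Affymetrix mouse genome arrays. The deposited values are log2 intensities, which the authors, per their methods, made with RMA, including quantile normalization, in Arraystar 3. Scanner intensities were not used here. Of 45037 probe sets, 34945 named 1 gene, 932 several and 9160 none. Each of 18193 genes was represented by the brightest of its single-gene probe sets, by mean over all arrays. A group-means model over all 12 arrays (8 residual degrees of freedom) was fitted with limma 3.58.1 in R 4.3.3, with moderated tests (eBayes) and Benjamini-Hochberg adjustment over all genes in each of 5 comparisons, and an adjusted p under 0.05 was called. Microarray values give no counting depth, so the number of arrays limits the precision. The code was tested on simulated data.

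Genes named in the text were the members called, the 3 most positive and 3 most negative members of each comparison, the activators, the 20S assembly chaperones, the catalytic subunits and, of the other proteasome genes, those with the smallest p. The members, lists and this rule were chosen with earlier results of these data known. Psmc3ip, Psmd4, Psmd9 and the further probe sets named were added after their values were seen. Alternatives changed the probe set of a gene, the filter on low values, the normalization, the array weights, the variance model, the arrays in the fit, the replicate block, the threshold and the test, and left out each array in turn. Promoter sequence came from RefSeq, build GRCm38.p6. A further motif searched is not reported here.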

Additional observations from a re-analysis of the deposited data

How the results depend on the processing

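Between untreated Ifnb-/- and Ifnb+/+ CGNs, where 0 members were called, array weights called 33 (3 higher and 30 lower, among 43.7% of all genes). An unadjusted p under 0.05 gave 14 (21.2% of all genes), and adding a change of at least 1.5-fold left 3 (5.98% of all genes). Leaving out 1 array gave 0 to 14 called (the 14 among 21.1% of all genes), and medians of -0.37 to -0.16. For rIFN-β in Ifnb+/+ CGNs (0 called), array weights called 8 (18.1% of all genes) and an unadjusted p under 0.05 gave 8 (19.9% of all genes). Leaving out 1 array gave 0 to 6 (the 6 among 16.0% of all genes). The medians were then -0.27 to -0.05 (-0.051 without the first untreated Ifnb+/+ array). For rIFN-β in Ifnb-/- CGNs (1 called, Psmg4), 0 were called after averaging all probe sets of each gene, or with the most variable probe set, every probe set on its own, arrays centred on their medians, the trended and robust variance, the methods' t-test with Benjamini-Hochberg adjustment, or an unadjusted p with 1.5-fold. Only the compared groups gave 2 (7.01% of all genes), array weights 17 (21.8% of all genes) and an unadjusted p under 0.05 gave 8 (14.6% of all genes). Leaving out 1 array gave 0 to 1, and medians of 0.09 to 0.28. Between the genotypes with rIFN-β (0 called), an unadjusted p under 0.05 gave 1 with or without 1.5-fold (1.97% and 4.94% of all genes). Leaving out 1 array gave 0 to 0, and medians of -0.03 to 0.16. The median was negative without the second Ifnb+/+ array with rIFN-β, and at -0.008 without the third Ifnb-/- array with rIFN-β. For the interaction (0 called), array weights called 20 (19 higher and 1 lower). An unadjusted p under 0.05 gave 12, all higher (10.1% of all genes were higher by this rule), and 8 with 1.5-fold. The share of all genes is not given here for the 20 or the 8, so neither count is read as a result about the members. Where a share is given above, array weights called 18.1% to 43.7% of all genes. Leaving out 1 array gave 0 to 7, and medians of 0.21 to 0.44. Array weights ran from 0.249 on the first untreated Ifnb+/+ array to 7.24 on the third; they came from limma's gene-by-gene method, because the REML method did not converge. The cause of these differences was not tested.

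The labels do not state whether same-numbered arrays were paired. Deviations of same-numbered arrays correlated at -0.50 to 0.43 over 18 pairs, 5 of them above 0.1, which does not settle it. The members' median deviation was lowest on the second array of every group. It was -0.20 in Ifnb-/- and -0.13 in Ifnb+/+ CGNs with rIFN-β, and -0.21 and -0.06 in the same genotypes untreated. With the replicate number as a block, 1 member was called for rIFN-β in Ifnb+/+ CGNs (Psmd8, adjusted p = 0.0475 in limma), among 4.66% of all genes. For rIFN-β in Ifnb-/- CGNs 0 were called, and 0 in the other comparisons. Over 175 single-gene results and 4125 alternative values, 3923 kept their side of the threshold, 37 lost a call, 165 gained one, and 0 called values changed sign. Among values not called, 96 changed sign.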
